A study of Homo sapiens with 8 samples.

Results

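The polypyrimidine tract binding protein (PTB) sites of human chromosome 19 were taken from 5 lists of crosslinking and immunoprecipitation (CLIP) peaks, as all peaks that the lists place on that chromosome. Peaks of one list and strand that lay within 20 nt of each other were joined into sites, which gave 13030 sites on chromosome 19 of 206508 over all chromosomes. The UVA list held 6100 of them, the UVC list 3379, the published iCLIP list 3390, the list without UV 114 and the yellow fluorescent protein (YFP) list 47. The chromosome was chosen by the counts themselves, since earlier work on the same lists had shown it to hold a larger share of UVA than of UVC sites. Its site numbers and UVA share are therefore a description and carry no test.

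PTB is a splicing regulator with RNA recognition motifs that bind short pyrimidine-rich stretches, many of them in introns beside alternative exons. CLIP fixes such contacts in living cells with ultraviolet light before the protein is captured, so a peak marks RNA that was held by the protein or carried along with it. Chromosome 19 is known for its many genes and for long arrays of zinc-finger genes, many of which encode KRAB-type repressors of transcription that arose by local duplication.

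The 293T cells, an established line of human embryonic kidney origin, carried a transgene for a protein with a Halo tag, which forms a covalent bond with its ligand on beads, and were selected with puromycin. The 4 groups, each of 2 samples, were Halo-PTB cells exposed to UVC, Halo-PTB cells exposed to UVA, Halo-PTB cells given no UV, and Halo-YFP cells exposed to UVC. Neither the transgenes' promoter nor the number of clones was stated. Each group is represented by 1 list in which its replicates are already combined, and the fifth list was rebuilt by the submitters from a published PTB iCLIP study whose cells the series text does not name. No spread between replicates and no sequencing depth can therefore be given. Intervals below are exact 95% binomial (Clopper-Pearson) intervals unless another kind is named, and they cover counting error only, on sites treated as independent.

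The label of a gene-dense chromosome was checked with the RefSeq gene table of GRCh38. That table was used only for gene names, chromosome membership, gene order and the position of the last gene. Chromosome 19 held 1451 of 19974 protein-coding genes (7.26%) but 1.95% of the summed chromosome extent reached by the peaks, which placed it at rank 1 of 23 chromosomes by genes per length. Of its protein-coding genes, 265 (18.3%) carried a zinc-finger symbol, and 46.2% of all such genes in the table lay on this chromosome. In gene order, 213 of them stood in 18 runs of at least 5 neighbours, the longest run having 27. No annotation or sequence of hg19, the build of the peaks, was used here, so sites are named by position and no sequences are shown.

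All 3 PTB lists were denser on chromosome 19 than elsewhere, UVA most of all. UVA sites numbered 103 per Mb of chromosome 19 and 21.5 per Mb of the other chromosomes, iCLIP sites 57.4 and 16.5, and UVC sites 57.2 and 26. The controls were also denser there, at 1.93 against 0.749 sites per Mb without UV and 0.795 against 0.347 with YFP. By nucleotides, UVA sites covered 0.299% of both strands of chromosome 19, which was 5.63 times their coverage of the other chromosomes, against 4.13 times for iCLIP, 2.41 times for UVC, 2.65 times for no UV and 2.51 times for YFP. The UVC list thus rose on this chromosome by about as much as the control lists did, and the UVA and iCLIP lists rose by more.

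Set against each other, UVA sites made up 64.4% of the UVA and UVC sites of chromosome 19 (interval 63.4 to 65.3) and 45.3% of those on the other chromosomes. Chromosome 16 came nearest with 61%, followed by chromosomes 22 (55.2%) and 17 (54.7%), which are also rich in genes. For every iCLIP site there were 1.80 UVA sites on chromosome 19 and 1.30 elsewhere, while UVC sites per iCLIP site fell to 0.997 from 1.57. The size of the gap changed with the score of the peaks: the share of the UVA list on chromosome 19 was 2.07 times that of the UVC list over all sites, but 1.16 times when only peaks scoring at least 100 were kept, which left 116 UVC sites. At or above each list's median score the ratio was 2.17. At scores of at least 100 the UVA share was 96% on chromosome 19 and 95.4% elsewhere. The score is the submitters' own, except for peaks set to the limit of 1000 by the rule given with the processing. Scores as used here end at 1000. The part of the peaks set to the limit in counts at the limit, score medians and shares above a cut was not tested. The cut at 100 was the same value in every list, while the median cut was set within each list. On chromosome 19, scores above 100 were found for 3.40% of the UVC list but 45.4% of the UVA list. Whether scores have the same scale in different lists was not tested, so the UVA share at the cut of 100 is a description.

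The sites themselves were alike in width across the PTB lists, with medians of 50 nt for UVC, 44 nt for UVA and 43 nt for iCLIP. UVC widths were bunched, with quartiles of 46 and 50 nt, whereas UVA widths ran from 28 to 69 nt between quartiles and up to 627 nt. UVA and iCLIP sites also stood closer together than on other chromosomes, with a median gap to the next site of 1070 nt for UVA (1872 nt elsewhere) and 1718 nt for iCLIP (2700 nt elsewhere). The UVC gap was 3282 nt against 4652 nt. At the cut of 100, scores set the chromosome little apart in UVA and iCLIP. Above it lay 45.4% of UVA sites and 21.4% of iCLIP sites, against 42.6% and 22.7% elsewhere. Of the UVC sites 3.40% did so, against 1.71% elsewhere. At the limit of 1000 the UVA list differed more, with 187 of 6100 sites on chromosome 19 and 1250 of 64010 elsewhere. The iCLIP list had few sites at the limit, 12 of 3390 on chromosome 19 and 101 of 49056 elsewhere.

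Positions agreed between lists more often on chromosome 19 than elsewhere, most clearly when counted from the UVC and iCLIP lists. Of the UVC sites, 795 (23.5%, interval 22.1 to 25) overlapped a UVA site of the same strand by 1 nt or more, where 11.3% did so over all chromosomes. Of the iCLIP sites, 1309 (38.6%, interval 37 to 40.3) met a UVA site, against 25.3% over all chromosomes. Both shares were the highest of the 23 chromosomes, the next being chromosome 17 with 16.5% and 32.2%. UVC sites also met iCLIP sites more often, in 377 cases (11.2%, interval 10.1 to 12.3), against 6.25% over all chromosomes. In the other direction 365 iCLIP sites (10.8%, interval 9.74 to 11.9) met a UVC site, against 9.43%.

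Counted from the UVA list, chromosome 19 differed less from the genome. UVA sites met a UVC site in 754 cases (12.4%, interval 11.5 to 13.2), against 12.6% over all chromosomes, and an iCLIP site in 1292 cases (21.2%, interval 20.2 to 22.2), against 19%. The second share was the highest of the 23 chromosomes, the next being 20.8% on chromosome 1, and was 1.13 times that of the other chromosomes (normal interval on the log scale 1.07 to 1.19). Relative to the other chromosomes, the share of UVC sites on UVA sites was 2.20 times as high (normal interval on the log scale 2.06 to 2.34). The share of UVA sites on UVC sites was 0.981 times as high (interval 0.915 to 1.05). The coverage of chromosome 19 by UVA sites, 5.63 times that of the other chromosomes, moved with the first of these ratios, and its part in the result was not tested. Among peaks scoring at least 100 the first ratio was 1.35, with 78 of 116 UVC sites on a UVA site.

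**Figure D1:**
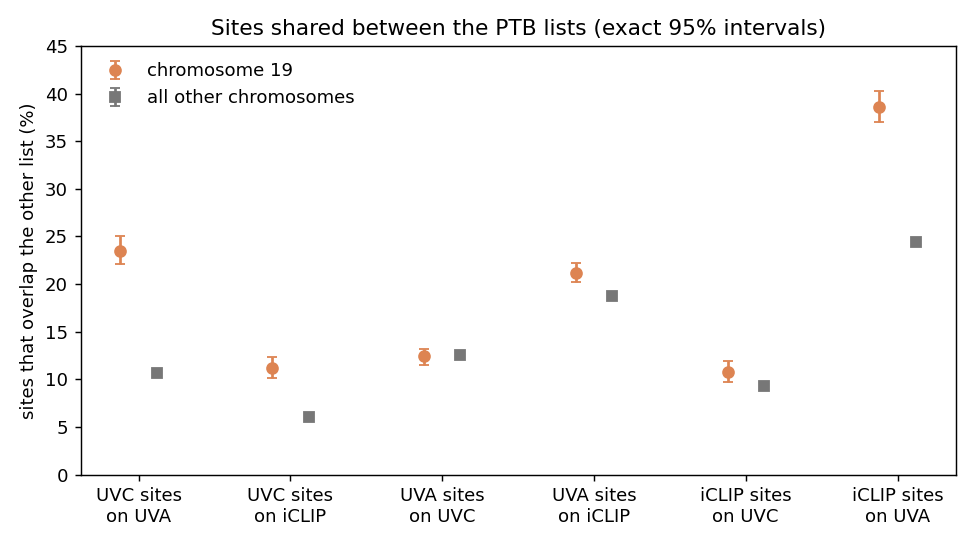
Percentage of the sites of one PTB list (first name) that overlap a site of another (second name) on their own strand by 1 nt or more, for chromosome 19 (circles) and all other chromosomes (squares), with exact 95% intervals. The chromosome 19 values lie well above the others for UVC sites on UVA (23.5% and 10.7%) and iCLIP sites on UVA (38.6% and 24.4%), and the UVA sites on UVC lie level (12.4% and 12.6%).

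UVC and iCLIP sites that met no UVA site lay nearer to one on chromosome 19 than elsewhere. The chromosome was chosen for its UVA sites, which numbered 103 per Mb there and 21.5 per Mb elsewhere. The part of that density in these distances was not tested. The 2584 UVC sites that met no UVA site lay a median of 1556 nt from the nearest one, against 8238 nt on other chromosomes, and 15.7% of them (46.9% elsewhere) were more than 10000 nt away. For the 2081 iCLIP sites that met no UVA site the median was 880 nt, against 3724 nt. Seen from the UVA list the distances to UVC were not shorter. The 5346 UVA sites that met no UVC site had a median of 2518 nt, against 2131 nt elsewhere. Overlapping sites were rarely in register: the midpoints of 810 overlapping UVC and UVA pairs were a median of 26.5 nt apart, and in 265 pairs (32.7%) the UVC site lay wholly inside the UVA site. In 1383 overlapping UVA and iCLIP pairs the iCLIP midpoint lay downstream of the UVA midpoint in 33.2%, and its median position was 11.5 nt upstream of the UVA midpoint.

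**Figure D2:**
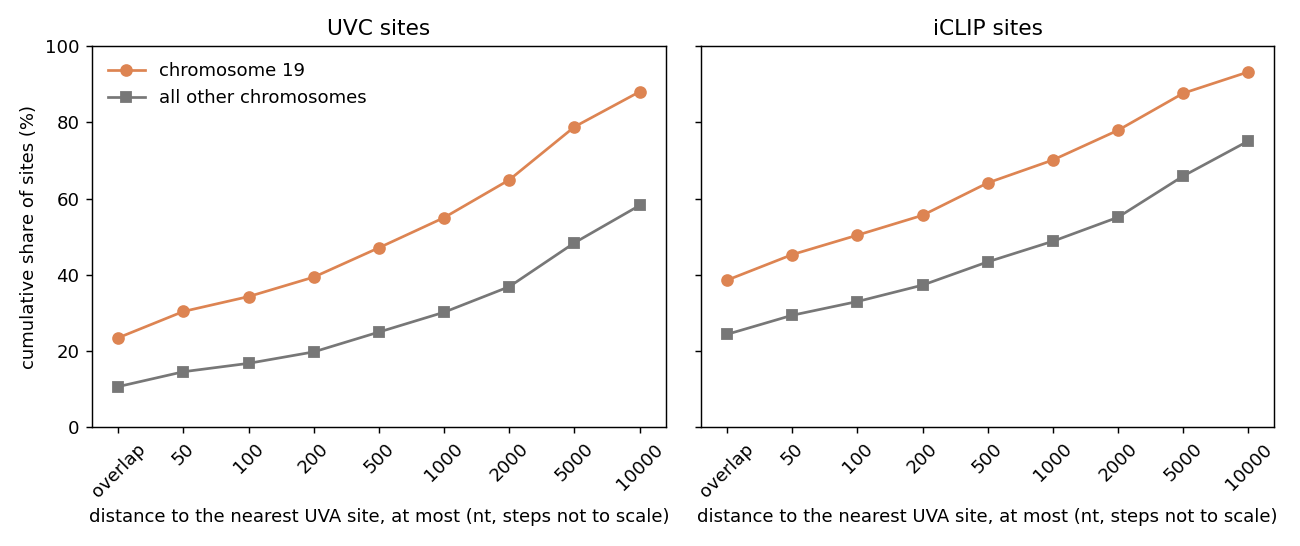
Cumulative percentage of UVC sites (left) and iCLIP sites (right) that overlap a UVA site or lie within a given distance of the nearest one on the same strand, in nt, for chromosome 19 (circles) and all other chromosomes (squares). The distance steps are not to scale. On both sides the chromosome 19 curve runs above the other at every distance, starting at 23.5% against 10.7% for UVC and at 38.6% against 24.4% for iCLIP. UVA sites were also denser on chromosome 19 (103 against 21.5 per Mb), and the part of this in the curves was not tested.

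By their partners, 278 UVC sites of chromosome 19 (8.23%, interval 7.32 to 9.21) met sites of UVA and of iCLIP, against 3.57% over all chromosomes, and 270 of them lay on no control site. A further 517 met UVA alone, 99 met iCLIP alone and 2485 (73.5%) met neither, against 86.1% over all chromosomes. UVA sites that met both other lists numbered 296 (4.85%, interval 4.33 to 5.42; 4.38% over all chromosomes) and had a median score of 363 and a median width of 104 nt. The 4350 UVA sites that met neither list (71.3%, against 72.8% over all chromosomes) had a median score of 64 and a median width of 38 nt. The shared sites were thus the wider and higher-scoring ones within the UVA list, as they were on other chromosomes (306 and 86 nt, against 60 and 35 nt). In iCLIP the 273 sites that met both lists (8.05%, against 5.66% over all chromosomes) had a median score of 102. The 1989 that met neither (58.7%, against 70.9%) had one of 32.

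The share that met another list rose with the score in each list. UVA sites scoring up to 20 met an iCLIP site in 3.91% of cases, those from 51 to 100 in 16.8%, those above 200 but below the limit in 36.8%, and the 187 at the limit of 1000 in 63.1% (interval 55.8 to 70). At matched iCLIP score, iCLIP sites met a UVA site more often on chromosome 19 than elsewhere. From 101 to 200 the share was 51% (interval 46 to 55.9) on chromosome 19 and 30% elsewhere. Above 200 but below the limit it was 65.4% and 44.9%. UVA sites at matched UVA score differed less in their share on iCLIP. These shares were 25.5% and 22.8% from 101 to 200, and 36.8% and 33.5% above 200 but below the limit. UVA sites covered chromosome 19 at 5.63 times their coverage elsewhere, and the part of this in the shares was not tested. UVC sites scoring from 21 to 50 met a UVA site in 27.9% of cases (interval 25.6 to 30.3), against 10.8% elsewhere, while above 200 but below the limit the shares were 75.8% of 33 sites and 75.2%.

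The highest-scoring sites show what such positions look like. The 5 leading UVA sites, all at the score limit and ranked by width, were chr19:58763516-58764058 (plus strand, 543 nt), chr19:48958110-48958611 (plus, 502 nt), chr19:5975662-5976162 (minus, 501 nt), chr19:811742-812208 (plus, 467 nt) and chr19:5681518-5681922 (plus, 405 nt). The first 4 overlapped both a UVC and an iCLIP site, the fifth an iCLIP site only, and none lay on a control site. The leading iCLIP site, chr19:48957982-48958606 (plus, 625 nt), covered nearly the same stretch as the second UVA site. The other leading iCLIP sites were chr19:42839669-42840106, chr19:1424444-1424858, chr19:44677221-44677624 and chr19:54969795-54970128, all on the plus strand. All 5 met a UVA site and all but the one at 42839669 met a UVC site.

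Among the leading UVC sites, the one at the limit, chr19:12841462-12841605 (minus, 144 nt), met UVA and iCLIP sites and also a site of the list without UV. Those at chr19:5691563-5691677 (plus, score 899) and chr19:18685879-18686040 (plus, score 703) also lay on a site of the list without UV, and the first of these met neither other PTB list. Those at chr19:13054937-13055056 (plus, score 838) and chr19:39327106-39327254 (minus, score 717) met both other PTB lists and no control. Control sites therefore touched 3 of the 5 leading UVC sites and none of the leading UVA or iCLIP sites. The leading UVA and iCLIP sites were the widest of those at the limit, whereas the UVC sites were ranked by score. Of all chromosome 19 sites scoring above 100, 18.3% in UVC, 1.19% in UVA and 0.552% in iCLIP lay on a control. On the other chromosomes these shares were 18.9%, 1.34% and 0.855%. The widest UVC sites shared by all 3 PTB lists and free of control sites were chr19:12827609-12827765 (minus, 157 nt), chr19:41829236-41829387 (plus, 152 nt) and the site at 39327106 (149 nt).

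Control sites were few on chromosome 19, but the UVC list met them more often than elsewhere. Of the UVC sites, 48 (1.42%, interval 1.05 to 1.88) lay on a site of either control, against 0.784% over all chromosomes, as did 38 UVA sites (0.623%, against 0.766%) and 13 iCLIP sites (0.383%, against 0.465%). By control, 39 UVC sites lay on a site of the list without UV (1.15%, interval 0.822 to 1.57, against 0.518%) and 9 on a YFP site (0.266%, against 0.348%). The UVA counts were 32 (0.525%, against 0.484%) and 7 (0.115%, against 0.342%), and the iCLIP counts 10 (0.295%, against 0.296%) and 3 (0.0885%, against 0.206%). The higher share in UVC was thus seen with the list without UV. That list covered chromosome 19 at 2.65 times its coverage of the other chromosomes, and the part of this in the share was not tested. Seen from the control, 38 of 114 sites without UV (33.3%, interval 24.8 to 42.8) lay on a UVC site, where 17.7% did so over all chromosomes, 32 (28.1%) on a UVA site, against 14.5%, and 10 (8.77%) on an iCLIP site, against 6.75%. Of the 47 YFP sites, 9 (19.1%) lay on a UVC site, 7 (14.9%) on a UVA site and 3 (6.38%) on an iCLIP site, where 25%, 21.4% and 9.91% did so over all chromosomes. Sites on a control scored higher in both UV lists: the 48 UVC sites had a median score of 88, against 21 for the others, and the 38 UVA sites one of 342, against 86. Of the 115 UVC sites scoring above 100, 21 (18.3%, interval 11.7 to 26.5) lay on a control, near the 18.9% of the other chromosomes. A single position was found in both controls (2.99% of no-UV sites and 6.20% of YFP sites over all chromosomes), chr19:49993874-49993922 (plus) without UV and chr19:49993873-49993956 with YFP. Both met a UVA site and no UVC or iCLIP site.

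The window with the most control sites, on the minus strand from 3900001 to 4000000, shows the mixture at one place. It held 14 UVC, 23 UVA and 8 iCLIP sites beside 5 sites without UV and none with YFP. From 3976064 to 3985456 it held 12 of the UVC sites, which had scores between 32 and 274. The median UVC score of the window was 153, against 21 for the chromosome, and the median UVA score was 521, against 87. The median iCLIP score was 19.5, below the 41 of the chromosome. All 5 sites without UV met a PTB site, and of the 14 UVC and 23 UVA sites 4 in each list met a control. The highest-scoring site without UV there, chr19:3976417-3976493 (score 44), lay on the UVC site chr19:3976438-3976565 (score 274), the UVA site chr19:3976324-3976544 (score 1000) and the iCLIP site chr19:3976452-3976551 (score 27).

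Along the chromosome, sites were counted by midpoint in windows of 100 kb on each strand. Of 1182 windows up to the last peak, 707 held a PTB site and 458 (64.8%) held all 3 PTB lists, where 43.6% of windows with a PTB site did so over all chromosomes. These 458 windows took in 92.7% of the UVC, 89% of the UVA and 94.2% of the iCLIP sites. Of the 707 windows, 63 held UVA sites alone, 33 UVC sites alone and 18 iCLIP sites alone. Among the 422 windows with at least 10 PTB sites, 393 held all 3 lists (93.1%, against 87.2% of such windows over all chromosomes). Of these 422, 18 lacked UVC, 10 lacked iCLIP and 3 lacked UVA. Shares over all chromosomes are not given for the windows with a single list or lacking a list. Those counts therefore describe chromosome 19 only and do not set it apart. At the scale of 100 kb most occupied windows thus held all 3 lists, although most single sites did not overlap. Among peaks scoring at least 100, of which the UVC list has few, 53 windows (10.9%) held all 3, and at or above each list's median score 299 (52.2%) did.

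The counts per window rose together. Over the 707 windows with a PTB site, UVA and iCLIP counts had a Pearson r of 0.764 and a Spearman rho of 0.723, UVC and iCLIP counts 0.685 and 0.674, and UVC and UVA counts 0.616 and 0.598. These are descriptions without a p-value, since the same windows, with the same genes, are counted in each list. Windows with at least 10 PTB sites held more UVA than UVC sites in 331 of 422 cases, against 45.7% of such windows over all chromosomes, and more UVC than UVA sites in 83. The UVA share of a window had a median of 66.7% and quartiles of 54.6% and 78.6%. In 44 windows the interval of that share lay wholly above the 64.4% of the chromosome, and in 42 wholly below it. These were 10.4% and 9.95% of windows, and over all chromosomes 14.9% and 14.7% of windows parted from their own chromosome in this way. Windows that parted from the chromosome were thus no more frequent on chromosome 19 than over the genome. At least 1 UVC site shared with both other lists stood in 160 of the 422 windows (37.9%, against 25.2% over all chromosomes).

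**Figure D3:**
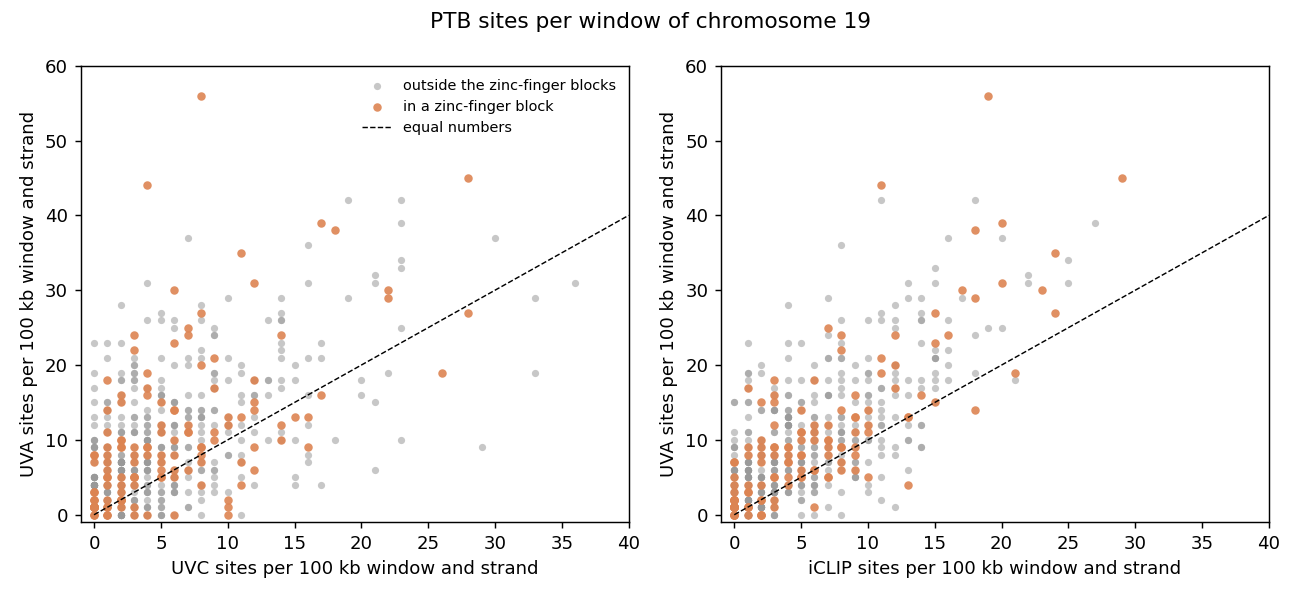
UVA sites per 100 kb window and strand of chromosome 19 against UVC sites (left) and iCLIP sites (right) in the same window, with each point 1 window, orange points lying in a zinc-finger block and the dashed line marking equal numbers. Most windows lie above the line on both sides, the counts of up to 56 UVA sites exceed the largest UVC count of 36 and iCLIP count of 29, and the points spread more widely against UVC.

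The windows richest in each list overlapped in part. The plus-strand window from 44600001 to 44700000 had the most iCLIP sites (29), with 45 UVA and 28 UVC sites and no control site. The minus-strand window from 40500001 to 40600000 was also rich in all 3, with 27 iCLIP, 39 UVA and 23 UVC sites. UVC counts peaked elsewhere, on the plus strand from 39800001 to 39900000, with 36 UVC, 31 UVA and 15 iCLIP sites and 2 sites without UV. That window and the plus-strand window from 36200001 to 36300000 had the most UVC sites that met both other lists, 6 each. The next 100 kb beyond the first, from 39900001 to 40000000, held fewer UVC (19) and more UVA sites (42).

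Sites shared by the 3 lists stood in groups in some of the windows that held the most of them, and apart in others. In the window from 39800001 they fell at 2 places. The UVC sites chr19:39835017-39835046, chr19:39835600-39835675, chr19:39836193-39836255 and chr19:39836518-39836600 followed each other within 2 kb. The sites chr19:39888600-39888635 and chr19:39888751-39888884 both lay inside 1 UVA site at the score limit, chr19:39888615-39888956, or across its edge. In the window from 36200001, 3 UVC sites between 36237676 and 36237902 met a single UVA site, chr19:36237632-36237897, and a single iCLIP site, chr19:36237599-36237837. The other shared UVC sites of that window began at 36229714, 36260050 and 36261718. The minus-strand window from 40700001 to 40800000 had 5 shared UVC sites that formed no group. They began at 40738243, 40754616, 40761557, 40772327 and 40783994. The plus-strand window from 36700001 to 36800000 had 5 shared UVC sites, each on a UVA site at the score limit, among 10 UVC, 13 UVA and 12 iCLIP sites. The median score there was 1000 in UVA and 568 in iCLIP but 46 in UVC.

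The UVA and UVC lists parted most in windows that held one of them alone, and those named here had at least 10 PTB sites. The 10 windows with the highest UVA share had no UVC site. The fullest, on the plus strand from 52900001 to 53000000, held 23 UVA and 4 iCLIP sites (UVA share interval 85.2 to 100), and those from 38900001 to 39000000 and from 3500001 to 3600000 on the same strand held 19 and 17 UVA sites with 1 and 3 iCLIP sites. In the opposite direction 3 of the 422 windows with at least 10 PTB sites had no UVA site. They held 11 UVC sites (plus strand, 42900001 to 43000000), 10 UVC sites (plus, 23900001 to 24000000) and 8 UVC sites (minus, 6000001 to 6100000), with 0, 2 and 5 iCLIP sites. Among windows with many sites the minus strand from 36900001 to 37000000 leaned to UVC, with 29 UVC, 9 UVA and 12 iCLIP sites (UVA share 23.7%, interval 11.4 to 40.2). The minus-strand window from 9000001 to 9100000 had the most UVA sites, with 56 to 8 UVC and 19 iCLIP sites (UVA share 87.5%, interval 76.8 to 94.4), of which 3 UVC and 6 iCLIP sites met a UVA site.

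Longer stretches leaned to UVA or to UVC over several megabases. The stretches below were marked out after the counts per megabase had been seen, so their values are descriptions. From 30 to 35 Mb, on the long arm, UVC sites outnumbered UVA sites by 228 to 155, a UVA share of 40.5% (interval 35.5 to 45.6), with 138 iCLIP sites. From 50 to 60 Mb, at the end of the long arm, 1336 UVA sites stood against 465 UVC sites, a share of 74.2% (interval 72.1 to 76.2), with 752 iCLIP sites. Among peaks scoring at least 100 these stretches differed from the rest of the chromosome by -4.68 points (normal interval -10 to 0.676) and 1.56 points (interval -0.00343 to 3.12), against -24.9 and 12.1 points over all sites. The iCLIP list followed UVA at the chromosome's end, where it had 22.2% of its chromosome 19 sites, UVA 21.9% and UVC 13.8%. From 30 to 35 Mb it lay between them, with 4.07% of its sites against 2.54% for UVA and 6.75% for UVC. The list without UV had 16 of its 114 sites from 30 to 35 Mb, and 225 of the 228 UVC sites there remained when sites on a control were left out. No list had a site between 25 and 28 Mb, and the megabase from 43 to 44 Mb, inside an otherwise well-filled stretch, held 3 UVC, 11 UVA and 2 iCLIP sites.

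Zinc-finger genes were examined in 7 blocks of whole megabases that were taken to hold the main arrays in hg19. The blocks come from general knowledge of the build, were not checked against an annotation and hold other genes too. They leave out smaller arrays and may cut larger ones at their edges. Sites outside the blocks may therefore also lie in zinc-finger genes. They are block A (9 to 10 Mb), block B (12 to 13 Mb), block C (20 to 24 Mb), block D (37 to 38 Mb), block E (44 to 45 Mb), block F (53 to 54 Mb) and block G (57 to 59 Mb). Together they held 1407 UVA, 777 UVC and 829 iCLIP sites, which were 23.1%, 23% and 24.5% of the chromosome 19 sites of each list. The UVA share was 64.4% in the blocks (interval 62.4 to 66.4) and 64.3% outside them, a difference of 0.0913 points (normal interval -2.20 to 2.38). The difference moved with the peaks used, to -2.60 points with peaks not merged (interval -4.61 to -0.585) and to 6.09 points with peaks at or above the median score of their list (interval 2.99 to 9.18), so no one direction held for the blocks as a class.

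Single blocks did differ, and in both directions. The UVA share was 76.9% in block A (interval 70.1 to 82.8), 75.1% in block F (interval 68.1 to 81.3) and 71.8% in block G (interval 67.9 to 75.4), all above the 64.3% outside. It was 54% in block C (interval 48.1 to 59.9), 54.5% in block D (interval 49.4 to 59.5) and 58.7% in block E (interval 53.3 to 63.9), all below it, and 66.1% in block B. The lower shares were not seen among the higher-scoring peaks: with only peaks at or above each list's median score, the difference from outside changed from -10.3 to 0.428 points in block C, from -9.83 to 4.67 in block D and from -5.66 to 2.79 in block E. The normal intervals of these changed values all included 0. Under that setting blocks F and G stayed above the outside value, and block A differed from it by 9.88 points with a normal interval of -0.284 to 20.1, which includes 0. Block A includes the UVA-rich minus-strand window from 9000001, without which its share was 71.2% (interval 62.1 to 79.2). That interval includes the 64.3% outside the blocks.

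**Figure D4:**
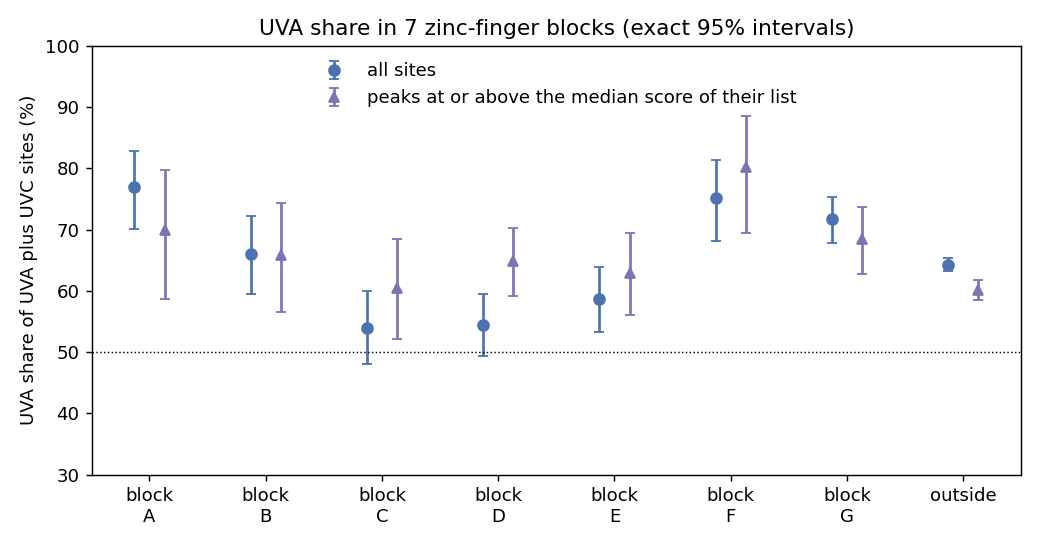
UVA sites as a percentage of UVA plus UVC sites in 7 zinc-finger blocks and in the rest of chromosome 19, with exact 95% intervals, for all sites (circles) and for peaks at or above the median score of their list (triangles). The dotted line marks equal numbers. Blocks A, F and G lie above the outside value for all sites (76.9%, 75.1% and 71.8% against 64.3%), and the low values of blocks C and D (54% and 54.5%) rise to 60.5% and 64.8% among the higher-scoring peaks.

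Block C, which lies next to the centromere, was thinly filled and its sites were seldom shared. It held 32.8 UVC, 38.5 UVA and 23.2 iCLIP sites per Mb, against 177, 212 and 140 in block D. Of its 131 UVC sites, 9 met a UVA site (6.87%, interval 3.19 to 12.6), and of its 93 iCLIP sites, 21 did (22.6%, interval 14.6 to 32.4). Outside the blocks these shares were 24% and 39%. In block G, by contrast, 55 of 163 UVC sites met a UVA site (33.7%, interval 26.5 to 41.6). UVC and UVA sites of block C were thus both present but rarely at the same nucleotides.

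Within block G, windows close to each other differed in their UVA share. The plus-strand window from 58000001 to 58100000 had 44 UVA, 4 UVC and 11 iCLIP sites (UVA share 91.7%, interval 80 to 97.7). The one from 58300001 to 58400000 on the same strand had 19 UVA, 26 UVC and 21 iCLIP sites (42.2%, interval 27.7 to 57.8), and 4 of its UVC sites met both other lists. In block F the plus-strand window from 53900001 to 54000000 held 27 UVA, 8 UVC and 24 iCLIP sites, and none of the UVC sites met a UVA site.

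Block D had the highest scores of the blocks in UVA and iCLIP, followed by block E. In block D 190 of 212 UVA sites (89.6%, interval 84.7 to 93.4) and 58.6% of 140 iCLIP sites scored above 100, against 42.9% and 20.4% outside the blocks. Its median score was 338 in UVA and 121 in iCLIP, while in UVC it was 22, next to 21 outside. Among megabases of all chromosomes with at least 50 sites, it ranked 2 of 430 by UVA median score and 3 of 261 by iCLIP median score, and on chromosome 19 it ranked 1 in both. Block E had medians of 156 in UVA and 87 in iCLIP and ranked 36 and 10. High scores were not limited to the blocks: the megabase from 34 to 35 Mb, outside all 7, had medians of 186 in 56 UVA sites and 97 in 47 iCLIP sites, too few iCLIP sites to be ranked. Block C had a UVA median of 110 but an iCLIP median of 35, and blocks F and G had iCLIP medians of 24 and 28. Over 181 windows with at least 5 sites in each PTB list, window median scores of UVA and iCLIP had a Spearman rho of 0.489, and those of UVA and UVC one of 0.115, again without a p-value. In blocks D and E both UVA and iCLIP medians were above those outside the blocks, while UVC medians stayed between 16 and 22 in every block.

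**Figure D5:**
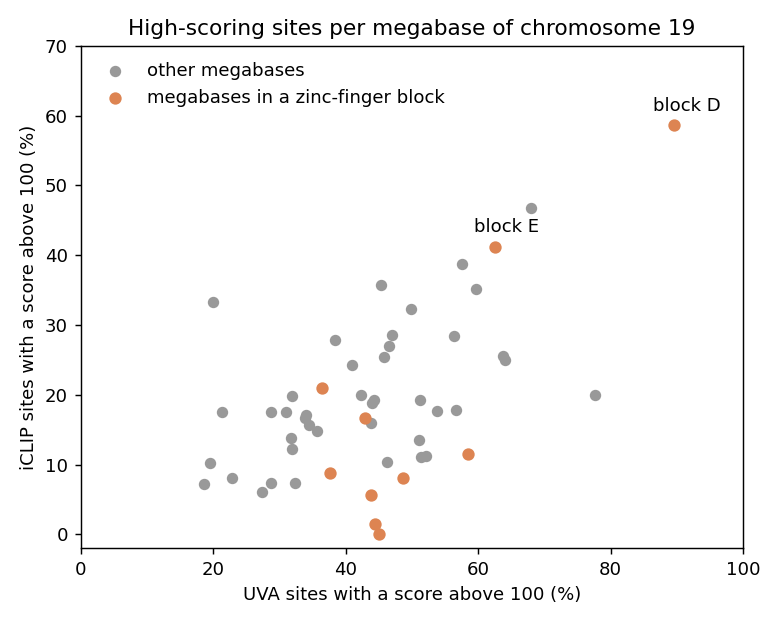
Percentage of UVA sites (horizontal) and of iCLIP sites (vertical) with a score above 100, in megabases of chromosome 19. Peaks set to the score limit are included. The 52 megabases shown have at least 20 UVA and 10 iCLIP sites, and 10 of them lie in a zinc-finger block (orange). Block D lies alone at the upper right (89.6% and 58.6%), followed by the megabase from 34 to 35 Mb outside the blocks (67.9% and 46.8%) and block E (62.6% and 41.2%), and the other zinc-finger megabases lie among the rest.

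Both strands of chromosome 19 were occupied, with 56.6% of the UVC list, 54.5% of the iCLIP list and 52.2% of the UVA list on the plus strand. Of the 434 stretches of 100 kb with a UVA site on either strand, 205 (47.2%) had UVA sites on both, as had 36% of those with UVC sites and 37% of those with iCLIP sites. Counting overlaps without regard to strand added 3 of 3379 UVC sites and 3 of 3390 iCLIP sites to those on a UVA site, so shared sites lay on the same strand almost without exception.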

How the data were processed

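The aligner Bowtie (1.1.2) is listed, as are hg19 and dm3, with no roles given, per the submitters' processing notes. For the peak caller, its filters and the pooling of replicates, details were not given in the sources used here. Chromosome 19 peaks past the last GRCh38 gene (228 in the UVA list) were why positions were read as hg19. The deposited lists give each peak a score and a p-value; peaks with both at 0 were set to the score limit of 1000. The p-value was used for nothing else. Depth is unknown. Positions are printed 1-based.

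Peaks within 20 nt on a strand were merged (highest score kept), and overlaps needed 1 nt on the same strand. Merging and overlap were tested on simulated data (600 of 600 placed sites found) and against bedtools 2.31.1 (40 of 40 counts equal). Named windows and sites followed fixed rules (5 highest scores per list, widest shared sites, 10 windows by count or UVA share with at least 10 PTB sites). Members and lists were chosen with earlier results of these data known. Python 3.11.15, pandas 2.3.3 and scipy 1.17.1 were used.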

Additional observations from a re-analysis of the deposited data

How the results depend on the processing

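No paired analysis was possible because each group is a single pooled list. Of 174 recomputed values, 108 stayed close to the value given (within its interval or, for the number of windows, within 1.5 times) and 60 moved further. The other 6 changed sign where the interval of the value given excluded 0. The cause of these changes was not tested. With peaks not merged, chromosome 19 held 4.36% of the UVC, 9.24% of the UVA and 6.84% of the iCLIP list, and the UVA share was 60% there and 40.1% elsewhere. With peaks within 100 nt merged, the UVA list gave 8.40% and the UVA shares were 60.9% and 42.2%. At scores of at least 100 the lists gave 7.97%, 9.22% and 6.17% and the UVA shares 96% and 95.4%. At or above the list median the UVA and iCLIP lists gave 9.27% and 5.98%, and the UVA shares 61.7% and 41.2%. The overlap on chromosome 19 relative to other chromosomes, at scores of at least 100, was 1.35 for UVC on UVA, 1.18 for UVC on iCLIP, 1.14 for UVA on UVC, 1.05 for UVA on iCLIP and 1.62 for iCLIP on UVC. At or above the median it was 2.38 for UVC on UVA, 1.66 for UVC on iCLIP, 1.04 for UVA on iCLIP and 1.71 for iCLIP on UVA. Requiring 50% of a site to be covered gave 2.44 for UVC on UVA and 2.06 for UVC on iCLIP, and midpoints within 50 nt gave 0.909 for UVA on UVC. With 50% covered, the share on a control site was 1.01% for UVC, 0.361% for UVA and 0.177% for iCLIP. Windows with all 3 lists were 53 (10.9%) at scores of at least 100, 299 (52.2%) at or above the median, 54.7% at 50 kb and 74.6% at 200 kb. Under those 4 settings in that order, Spearman rho was 0.307, 0.507, 0.476 and 0.705 for UVC and UVA, 0.232, 0.542, 0.588 and 0.758 for UVC and iCLIP, and 0.378, 0.575, 0.624 and 0.802 for UVA and iCLIP. The UVA share of all 7 zinc-finger blocks minus that outside was -2.60 points with peaks not merged, 2.79 at scores of at least 100, 6.09 at or above the median and -2.56 without block G. At scores of at least 100 the difference was 2.80 points in block A, 4.72 in block C, 2.16 in block D, 1.67 in block E and 3.64 in block G. At or above the median it was 0.428 in block C, 4.67 in block D, 2.79 in block E and 20.1 in block F. Blocks C, D and E thus changed sign under both settings, but most of these values had normal intervals that included 0. The exception was block C at scores of at least 100 (interval 3.82 to 5.62), with 83 UVA and 0 UVC sites. Without a UVC site in the block, that normal interval holds the counting error of the outside sites only. It therefore cannot show that the difference excludes 0. The exact interval of the UVA share was 95.7 to 100 in block C and 94.3 to 96.1 outside the blocks, and these overlap. From 30 to 35 Mb the difference from the rest of the chromosome was -4.68 points at scores of at least 100 and -18.9 at or above the median. From 50 to 60 Mb it was 1.56 at scores of at least 100. These stretches were chosen after seeing the data. Few UVC peaks reached a score of 100, and without replicates no spread between samples could be set beside any value.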
